A study of Homo sapiens with 9 samples.

Results

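The MYC and PVT1 locus at 8q24 is described here as all rows of the deposited transcript table that lie wholly between positions 126500000 and 129500000 of chromosome 8 (GRCh38). This 3 Mb window held 358 of the 90652 listed transcripts and 18 of the 28717 listed genes. It was dominated by a pair of long non-coding RNA (lncRNA) genes, PVT1 and PCAT1, which together made up 91.3% to 93.8% of the signal of the window in every library. The gene MYC itself, whose V29 span overlaps the end of the listed CASC11 and lies 5′ of PVT1, has no row in the table and was not analysed here.

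MYC encodes a transcription factor that drives cell growth and division, and its level is set by enhancers spread over the gene-poor DNA on both sides of it. PVT1 is the lncRNA gene next to MYC on its 3′ side. It hosts several microRNAs, its RNA is known to raise the stability of the MYC protein, and its promoter can compete with that of MYC for enhancers. The DNA on the 5′ side of MYC holds PCAT1, PRNCR1, CASC19, CCAT2 and CASC8, lncRNA genes first studied in prostate and colorectal cancer, where inherited risk maps to this stretch. The SNU16 line, from a human gastric carcinoma, is known to carry amplified MYC and FGFR2. DNA copy number was not measured in these data.

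The 9 libraries were made from total RNA of SNU16 cells whose genotype the labels give as WT. The 3 groups of 3 replicates were untreated cells at 24 h (control), cells given 7.69 µM 5-fluorouracil (5-FU) for 24 h, and cells given 80 µM hydrogen peroxide (H2O2) for 24 h. 5-FU is a pyrimidine analogue that blocks thymidylate synthesis and is built into RNA and DNA, and H2O2 is an oxidant. All groups are 1 cell line. The labels do not state that replicates were separate cultures, and the p-values then cover only the variation among these libraries, part of which may be technical.

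Values are FPKM, that is fragments scaled to transcript length and library size, so levels of different genes are compared per length. A gene's value is the sum over its listed transcripts. The listed FPKM of all genes summed to between 56096 and 60642 per library, and sequencing depth is unknown. Of 16 markers of gastrointestinal epithelial cells 9 were listed, such as KRT8, EPCAM and CEACAM5. Summed over these 9, control libraries lay at 339 to 429 FPKM, 5-FU libraries at 217 to 288 and H2O2 libraries at 314 to 456. The part of this difference in the results was not tested. The 4 listed fibroblast markers summed to at most 0.724 FPKM, with COL1A2 and COL3A1 at 0. PTPRC, a marker of blood cells, was listed at 0 in every library. Such values under protein-coding symbols are mostly those of retained-intron and other non-coding transcripts, so a 0 does not show absence of the mRNA. On the first 2 principal components of all tested genes, replicate 3 of 5-FU and replicate 3 of H2O2 stood apart from their groups. Replicate 3 of 5-FU was at 33.28 on the first, against 12.51 and 15.78. Replicate 3 of H2O2 was at 41.86 on the second, against 2.39 and 3.40.

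Of the 18 member genes, 5 reached 0.5 FPKM in at least 3 of the 9 libraries and were tested: PVT1, PCAT1, CASC19, PRNCR1 and CCAT2. The other 13 stayed at or below 0.237 FPKM in every library, and 7 of these were listed at 0 throughout. The signal ended at PVT1. All 5 members 3′ of it, with 26 rows, were listed at 0 in all libraries, among them LINC00824 and CCDC26, whereas 4 of the 11 members 5′ of it were tested. A further 121 rows cross the border of the window, 119 of them of CCDC26, are not members, and reached at most 0.00796 FPKM.

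**Figure D1:**
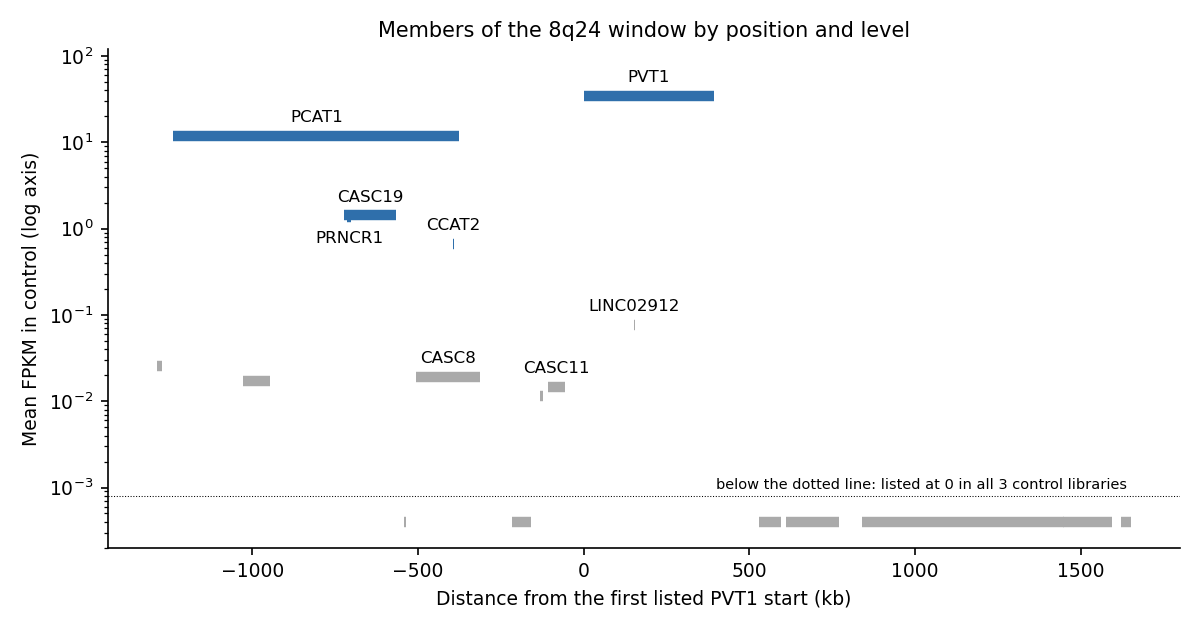
Each bar is 1 of the 18 member genes, drawn over its listed span in kb from the first listed PVT1 start (horizontal axis), at its mean FPKM in the 3 control libraries (vertical axis, log scale). Blue bars are the 5 tested members and grey bars the 13 others; PVT1 stands highest at 34.6 FPKM, and the members to its right are listed at 0.

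In control cells the order of levels was PVT1 at 34.6 ± 5.15 FPKM, PCAT1 at 11.7 ± 2.90, CASC19 at 1.42 ± 0.587, PRNCR1 at 1.38 ± 0.191 and CCAT2 at 0.665 ± 0.222 (mean ± SD, n = 3). CASC19 and PRNCR1 did not differ beyond their spread. Among 2553 tested lncRNA genes, ranked by mean control FPKM, PVT1 was at rank 21 and PCAT1 at rank 82. CASC19, PRNCR1 and CCAT2 were at ranks 1036, 1060 and 1907, around and below the median lncRNA gene at 1.12 FPKM.

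After treatment the sum of PVT1 stayed within its control range or close to it, PCAT1 had lower means in both treatments, and CASC19 had a higher mean in 5-FU. None of these differences passed the threshold. In bulk RNA, fewer cells with a transcript and less of it per cell cannot be told apart. With limma and Benjamini-Hochberg adjustment over all tested genes, 0 of 5 member genes were called at an adjusted p under 0.05 in 5-FU against control, where 0.774% of 9947 tested genes were called. The count was also 0 of 5 for H2O2 against control, where 0% of genes were called, and for 5-FU against H2O2, where 0.0704% were called. At an unadjusted p under 0.05 the counts were 2, 1 and 0 members in that order, against 15.5%, 9.07% and 11.6% of all tested genes. The member groups did not overlap for 3 of 5 genes in 5-FU against control, all lower, where 22.3% of all genes did not overlap. They did so for 0 of 5 in H2O2 against control (15.4% of all genes) and for 2 of 5 in 5-FU against H2O2 (17.7%), both lower in 5-FU.

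The median log2 difference of the 5 members was -0.31 in 5-FU against control and -0.11 in H2O2 against control, beside 0.03 over all tested genes in each. With 5 members this median is the value of PRNCR1 alone. In each comparison 2 of the 5 were above 0, among them PVT1 at 0.10 and 0.20, so the median does not describe the signal of the window.

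**Figure D2:**
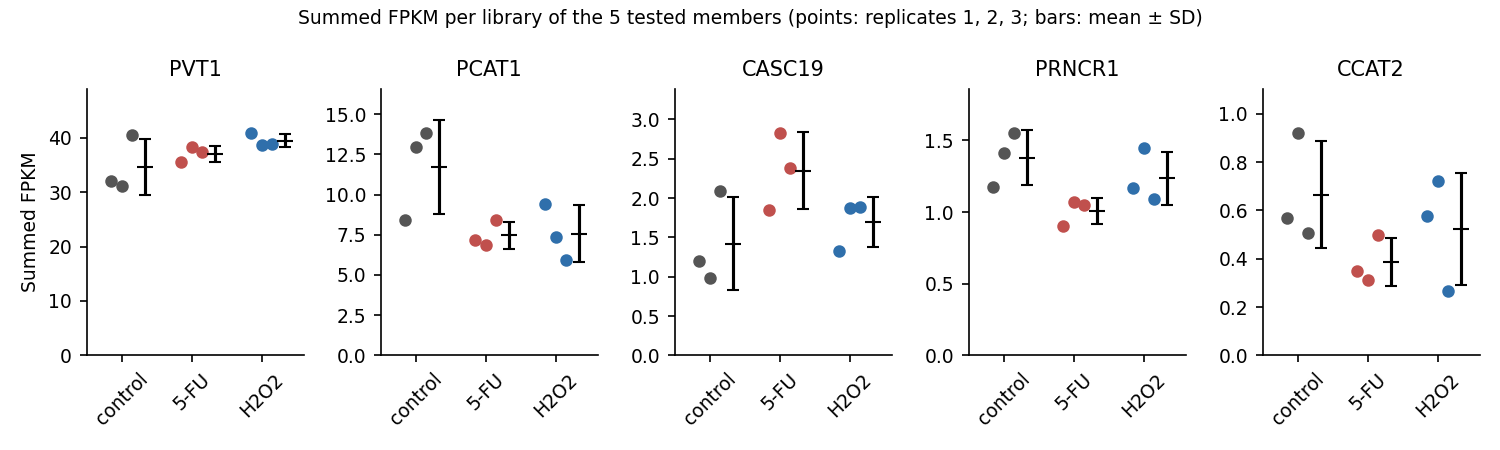
Summed FPKM (vertical axes, each from 0) of the 5 tested members in each library, grouped by treatment (horizontal axis); points are replicates 1 to 3 from left to right and bars show mean ± SD. PVT1 overlaps between control and both treatments, while for PCAT1, PRNCR1 and CCAT2 every 5-FU library is below every control library.

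**Figure D3:**
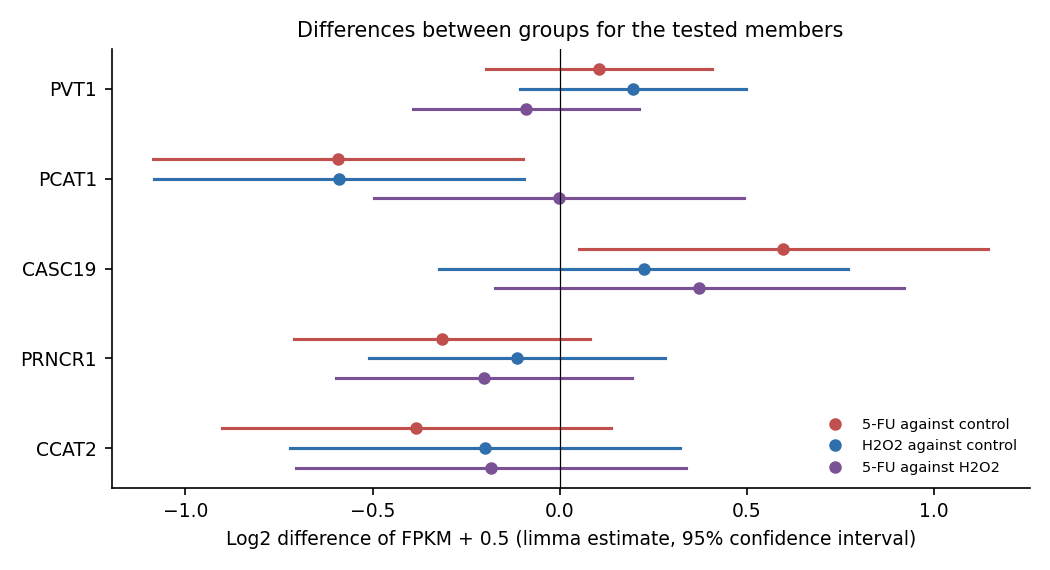
Log2 difference of FPKM + 0.5 (horizontal axis) for the 5 tested members in the 3 comparisons, as limma estimates with 95% confidence intervals. PCAT1 is near -0.59 against control in both treatments, and the estimate for 5-FU against H2O2 is close to 0.

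PVT1 (ENSG00000249859, chr8:127794526-128187101) was the most abundant gene of the window. Its summed FPKM was 32.1, 31.2 and 40.6 in control replicates 1 to 3. The values were 35.5, 38.2 and 37.3 in 5-FU, and 40.8, 38.7 and 38.9 in H2O2. Control replicates 1 and 2 were the 2 lowest of the 9 libraries, and control replicate 3 was the second highest, so control overlapped both treatments. Every 5-FU library was below every H2O2 library.

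The log2 difference of PVT1 was 0.10 ± 0.14 (SE) in 5-FU against control, with a 95% confidence interval of -0.20 to 0.41 and an adjusted p of 0.772. In H2O2 against control it was 0.20 ± 0.14, with an interval of -0.11 to 0.50 and an adjusted p of 0.689. These intervals contain no change as well as gains of up to 1.33-fold and 1.41-fold on the FPKM + 0.5 scale. For 5-FU against H2O2 the difference was -0.09, adjusted p 0.841, with an exact permutation p of 0.1, the smallest that 3 against 3 libraries allow. Without replicate 3 of both treatments, which stood apart, the differences from control were 0.10 and 0.21.

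The spread of PVT1 in control came mostly from 1 transcript. PVT1-219, which starts at the 5′ end of the gene, was at 1.74, 1.37 and 6.86 FPKM in control, 1.37, 0.918 and 1.39 in 5-FU, and 1.73, 0.966 and 2.32 in H2O2. Its value in control replicate 3 was several-fold above all other libraries. With this transcript left out, a choice made after its values were seen, the sum of the other 189 rows was 30.4, 29.9 and 33.7 FPKM in control. It was then 34.1, 37.3 and 36.0 in 5-FU and 39.1, 37.7 and 36.5 in H2O2. Both treatments were then above control without overlap, with log2 ratios of means of 0.19 for 5-FU and 0.27 for H2O2 and an exact permutation p of 0.1 for each, the smallest possible. PVT1-219 was left out because, among the 8 most abundant transcripts, its SD in control was the largest. The separation and its p are therefore not a valid test of PVT1. With all rows both treatments overlapped control, with an exact permutation p of 0.4 for 5-FU and 0.3 for H2O2.

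PVT1 has 190 rows, the most of any member, of which 20 are in GENCODE V29 and 140 stayed below 0.5 FPKM in every library. The division of reads among so many overlapping models is an estimate, and exact zeros beside values of several FPKM occurred in replicates of 1 group, so single-transcript values are less certain than the sum. The 8 transcripts with the highest mean made up 39.0% to 54.0% of PVT1 in each library. No single transcript stood for the gene.

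The most abundant was PVT1-254, a long model that starts 1 kb into the gene. It was at 3.15, 2.58 and 3.58 FPKM in control, 2.36, 2.59 and 3.88 in 5-FU, and 2.86, 2.63 and 2.33 in H2O2, with overlap in both comparisons with control. PVT1-336, which starts 203 kb in, varied within groups more than between them. Its values were 0.937, 3.25 and 4.14 FPKM in control, 3.56, 3.87 and 1.41 in 5-FU, and 2.19, 5.07 and 0 in H2O2.

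PVT1-237, which starts 214 kb in, was at 1.41, 2.49 and 2.34 FPKM in control, 2.15, 2.40 and 3.29 in 5-FU, and 2.61, 2.52 and 3.88 in H2O2. All H2O2 libraries were above all control libraries, by a narrow margin. PVT1-212, from the 5′ end, was at 1.26, 1.17 and 1.38 FPKM in control, 1.29, 1.77 and 2.19 in 5-FU, and 1.52, 1.62 and 1.53 in H2O2. It too was higher in H2O2 without overlap, with a log2 difference of 0.22 and an adjusted p of 0.820 by limma. PVT1-361 ranged from 0.245 to 2.27 FPKM and PVT1-245 from 0.588 to 2.12, with overlap in all comparisons.

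The largest difference from control among the tested PVT1 transcripts was that of PVT1-333 (chr8:127984004-127995613), a short model 189 kb into the gene. It was at 1.15, 0 and 0 FPKM in control, 1.60, 2.42 and 1.59 in 5-FU, and 2.36, 2.04 and 2.005 in H2O2. It was higher in both treatments without overlap, and the 2 control libraries at 0 were the 2 lowest. The limma log2 difference was 1.65 ± 0.42 (SE) in 5-FU, adjusted p 0.235, and 1.82 ± 0.42 in H2O2, adjusted p 0.498. These sizes depend on the pseudocount, since 2 control libraries are at 0: with 0.1 they were 3.06 and 3.26, and with 1 they were 1.14 and 1.28. Without control replicate 1, the only control library above 0, the H2O2 difference was 2.39 with an adjusted p of 0.0383. It was the only call among the tested member transcripts under any alternative tried. In the 5-FU comparison the lowest adjusted p of the alternatives was 0.105.

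PVT1-226, chosen after its values were seen, went the other way in H2O2. It starts 233 kb in and ends near the common 3′ end, and was at 1.30, 1.12 and 1.10 FPKM in control, 1.49, 1.24 and 0.649 in 5-FU, and 0.640, 0.508 and 0.527 in H2O2. All H2O2 libraries were below all control libraries, with a log2 difference of -0.66 ± 0.23 (SE) and an adjusted p of 0.586 by limma.

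Over all members, 37 transcripts were tested: 27 of PVT1, 7 of PCAT1 and 1 each of CASC19, PRNCR1 and CCAT2. By limma 0 of 37 were called in 5-FU against control, where 0.00442% of 22618 tested transcripts were called. The count was 0 of 37 in H2O2 against control, where 0.0133% were called, and 0 of 37 in 5-FU against H2O2, where again 0.0133% were called. At an unadjusted p under 0.05 the counts were 4, 4 and 2, against 10.4%, 7.60% and 8.45% of all tested transcripts. Groups did not overlap for 6 of 37 transcripts in 5-FU against control (17.8% of all), 8 of 37 in H2O2 against control (13.7% of all) and 4 of 37 in 5-FU against H2O2 (14.3% of all). For PVT1 alone the numbers were 2, 5 and 2 of 27. Of the 8 member transcripts in H2O2 against control, 6 were higher and 2 lower.

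**Figure D4:**
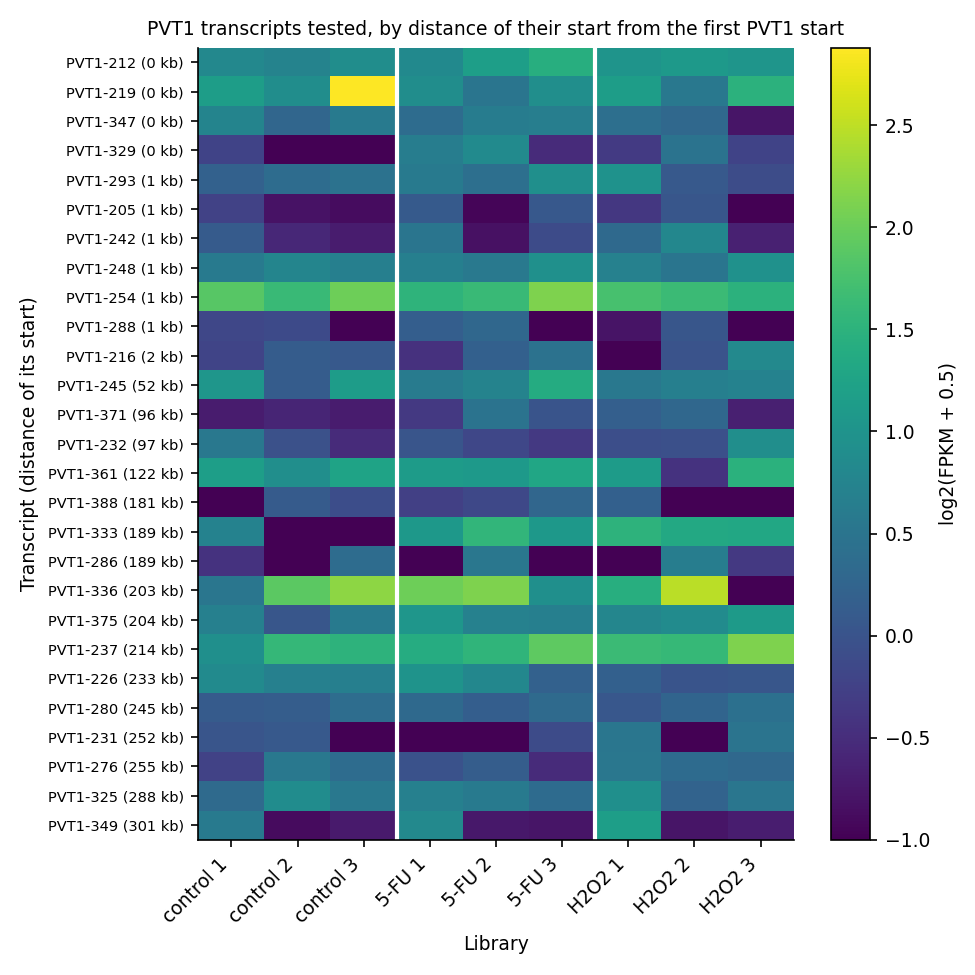
Log2(FPKM + 0.5) (colour) of the 27 tested PVT1 transcripts (rows, ordered by the distance in kb of their start from the first listed PVT1 start) in the 9 libraries (columns). PVT1-219 is brightest in control replicate 3, PVT1-333 is dark in control replicates 2 and 3, and PVT1-226 is darker in the 3 H2O2 libraries.

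PVT1 rows were grouped by annotated start, with a new group wherever 2 neighbouring starts were over 2000 bases apart. This gave 19 groups, 10 of them with 1 row. Rows that start at the 5′ end can run over most of the gene, so the sums of these groups do not place reads along it. The first group, at the annotated 5′ end, holds 93 rows. It summed to 13.9, 13.1 and 19.3 FPKM in control, 13.4, 13.5 and 17.2 in 5-FU, and 14.6, 15.7 and 14.6 in H2O2. This was 35.4% to 47.6% of PVT1, and the groups overlapped.

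The 97 rows that start further in carried the other part, 52.4% to 64.6% of the sum. They stood at 18.2, 18.1 and 21.2 FPKM in control, 22.1, 24.7 and 20.2 in 5-FU, and 26.2, 22.9 and 24.2 in H2O2. All H2O2 libraries were above all control libraries, with a log2 ratio of means of 0.35 (exact permutation p 0.1, the smallest possible), whereas 5-FU and control overlapped. For the 5′ group the same ratio was -0.04 in H2O2 and -0.07 in 5-FU. That group includes PVT1-219, at 1.74, 1.37 and 6.86 FPKM in control replicates 1 to 3, which raises its control mean. These ratios alone therefore do not show that the H2O2 difference is confined to the later starts, and the ratio without PVT1-219 was not tested.

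Among the later starts, the 12 rows 189 kb in, which include PVT1-333, summed to 1.70, 0.0423 and 1.80 FPKM in control, 1.96, 4.08 and 1.62 in 5-FU, and 3.84, 4.15 and 2.33 in H2O2. The H2O2 libraries were all above control, and control replicate 2 was far below the rest. The 8 rows that start 203 kb in, which include PVT1-336, carried 8.70% to 18.9% of PVT1 and overlapped between groups. The 35 rows that start 251 kb in lie around the position of the microRNA gene MIR1207. They summed to 2.16, 2.57 and 1.73 FPKM in control, 1.91, 1.48 and 1.52 in 5-FU, and 2.66, 2.37 and 4.44 in H2O2, so that every 5-FU library was below every H2O2 library. These are values of the listed long transcripts and not of the microRNAs MIR1204 to MIR1208, whose genes lie within PVT1.

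At the 3′ end, 104 rows end within 100 bases of the end that RefSeq gives for PVT1, at position 128101256. They summed to 10.4, 13.1 and 14.2 FPKM in control, 13.2, 14.1 and 11.3 in 5-FU, and 16.7, 16.2 and 16.0 in H2O2. All H2O2 libraries were above all others, with a log2 ratio of means of 0.38 to control (exact permutation p 0.1, the smallest possible). PVT1-226, which was lower in H2O2, ends at position 128101099, outside the 100-base limit, and is counted with the rows that end earlier. Those rows summed to 18.1 to 26.3 FPKM in control and 22.5 to 24.1 in H2O2, with overlap. Only 2 rows run past the RefSeq end by over 100 bases, with at most 0.168% of PVT1.

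PCAT1 (ENSG00000253438, chr8:126556323-127419050), a lncRNA first described as overexpressed in prostate cancer, was the second most abundant member. Its 34 rows summed to 8.40, 12.9 and 13.8 FPKM in control, 7.16, 6.85 and 8.39 in 5-FU, and 9.43, 7.35 and 5.95 in H2O2. The 5-FU libraries were all below control, the highest of them by 8.39 against 8.40, while H2O2 and control overlapped. The log2 difference was -0.59 ± 0.22 (SE) in 5-FU, with a 95% confidence interval of -1.09 to -0.10 and an adjusted p of 0.235 by limma. In H2O2 it was also -0.59 ± 0.22, adjusted p 0.487, and between the treatments it was 0.00 with an interval of -0.50 to 0.49. Without replicate 3 of both treatments the values were -0.67 in 5-FU, -0.44 in H2O2 and -0.24 between them.

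The listed gene PCAT1 is wider than the RefSeq gene of that name and is not 1 RNA. RefSeq's PCAT1 has the same coordinates as a single transcript, PCAT1-208, and that transcript was at 1.58, 0 and 1.48 FPKM in control, 0, 0 and 1.64 in 5-FU, and 0 in all 3 H2O2 libraries. It was listed at 0 in 6 of 9 libraries, with libraries above 0 in both control and 5-FU. By V29, which holds 32 of the 34 rows, 11 rows were counted as sharing an exon position with a protein-coding gene. These were 2 with FAM84B, now named LRATD2, and 9 with POU5F1B, a retrogene of the pluripotency factor POU5F1. Rows not in V29 had no exons to check and were counted only if their whole span lay within that of a coding gene. FAM84B lies on the opposite strand to PCAT1 and POU5F1B on the same strand. The labels do not state whether the authors quantified by strand, so reads of PCAT1 and of FAM84B cannot be told apart. Reads of PCAT1 and of POU5F1B at shared positions could not be told apart by strand in any case.

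The 2 rows on FAM84B summed to 0.279, 4.05 and 3.95 FPKM in control, 2.53, 2.04 and 2.82 in 5-FU, and 2.88, 0.360 and 0.480 in H2O2. They varied by over 10-fold within control, where their SD was 2.15 FPKM, against 0.0898 for the rows on POU5F1B and 0.824 for the rows without a coding exon. The most abundant of them, PCAT1-207, was at 0 in control replicate 1 and in H2O2 replicates 2 and 3, and between 1.67 and 3.71 FPKM in the other libraries.

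The 9 rows on POU5F1B were steadier, at 2.59, 2.50 and 2.68 FPKM in control, 1.43, 1.42 and 0.879 in 5-FU, and 2.18, 2.34 and 1.28 in H2O2. Both treatments were below control without overlap, with ratios of means of 0.480 in 5-FU and 0.747 in H2O2. The 23 rows without a coding exon summed to 5.53, 6.40 and 7.18 FPKM in control, 3.20, 3.39 and 4.69 in 5-FU, and 4.37, 4.65 and 4.18 in H2O2. They too were below control without overlap in both treatments, with ratios of means of 0.590 and 0.691. Each of these 4 comparisons had an exact permutation p of 0.1, the smallest possible.

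Refitted with only those 23 rows as PCAT1, an alternative added after the data were seen, the log2 difference was -0.70 ± 0.18 (SE) in 5-FU, with an adjusted p of 0.113. In H2O2 it was -0.48 ± 0.18, adjusted p 0.486 by limma. The direction was thus the same with and without the rows on coding exons, and neither passed the threshold.

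**Figure D5:**
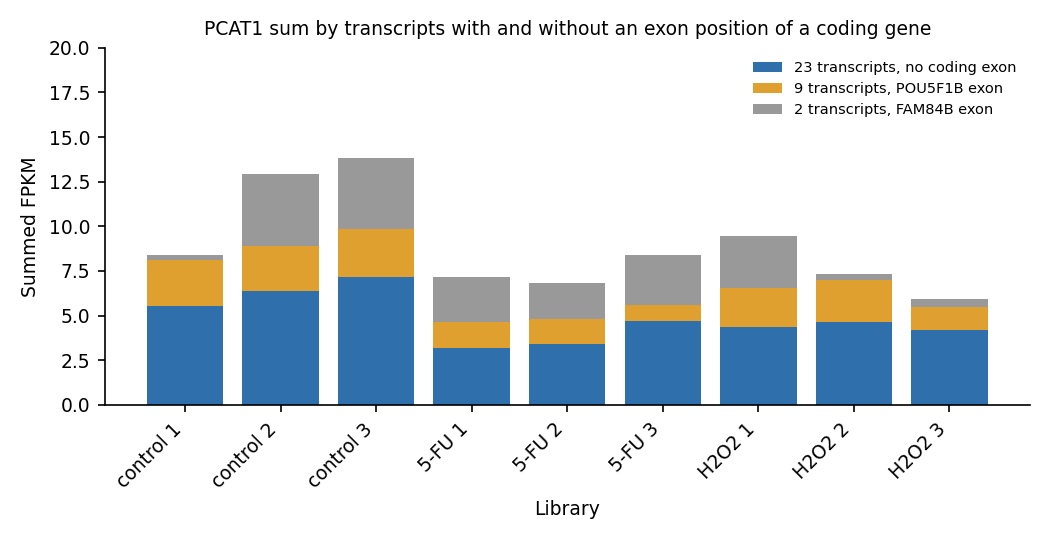
Summed FPKM of PCAT1 (vertical axis) in the 9 libraries (horizontal axis), stacked by the 23 transcripts without a coding exon, the 9 that share an exon position with POU5F1B and the 2 that share one with FAM84B. The FAM84B part ranges from 0.279 to 4.05 FPKM within control, while the other 2 parts are higher in every control library than in any treated library.

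Among single PCAT1 transcripts, PCAT1-232, chosen after its values were seen, separated the treatments. It spans 580 kb of the listed gene and was at 0.0873, 0.550 and 0.512 FPKM in control, 0.177, 0.192 and 0.177 in 5-FU, and 0.943, 0.794 and 1.08 in H2O2. All H2O2 libraries were above all others. The log2 difference of 5-FU against H2O2 was -1.07 ± 0.26 (SE), with an adjusted p of 0.339 by limma. PCAT1-219, likewise chosen after its values were seen, which starts within the V29 span of POU5F1B, was lower in 5-FU without overlap, at 0.152 to 0.336 FPKM against 0.492 to 0.843 in control, and overlapped control in H2O2 at 0.137 to 0.581. PCAT1-224, the second most abundant PCAT1 transcript, was lower in both treatments without overlap, at 0.433 to 0.584 FPKM in 5-FU, 0.448 to 0.566 in H2O2 and 0.607 to 1.63 in control.

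The other 3 tested members were low. CASC19 (ENSG00000254166, chr8:127072694-127227541), a lncRNA gene with raised levels in colorectal and gastric cancer, was at 1.20, 0.979 and 2.09 FPKM in control, 1.85, 2.82 and 2.38 in 5-FU, and 1.33, 1.87 and 1.89 in H2O2. It was the only tested member with a higher mean in 5-FU by over 0.5 on the log2 scale, and the groups overlapped through control replicate 3. The log2 difference was 0.60 ± 0.25 (SE) in 5-FU, adjusted p 0.286, and 0.22 ± 0.25 in H2O2, adjusted p 0.812 by limma. The H2O2 value was 0.06 without control replicate 2 and 0.46 without control replicate 3.

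The listed CASC19 also covers other named RNAs. Of its 89 rows, 87 stayed below 0.5 FPKM in every library. CASC19-203 has the coordinates that RefSeq gives to PCAT2. CASC19-201 covers 99.7% of RefSeq's CCAT1, a colon cancer lncRNA of which a long form takes part in chromatin looping at MYC. CASC19-201 was the only tested CASC19 transcript, at 0.170, 0 and 0.322 FPKM in control, 0, 1.16 and 0 in 5-FU, and 0.362, 0.592 and 0.526 in H2O2. All H2O2 libraries were above all control libraries, and 5-FU held both the highest value and 2 zeros. The next most abundant, CASC19-266, reached 0.347 FPKM.

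PRNCR1 (ENSG00000282961, chr8:127079874-127092600), a prostate cancer lncRNA of 1 row, lies within the listed span of CASC19. It was at 1.17, 1.41 and 1.55 FPKM in control, 0.902, 1.07 and 1.05 in 5-FU, and 1.17, 1.44 and 1.09 in H2O2. Every 5-FU library was below every control and every H2O2 library, while H2O2 and control overlapped. The log2 difference in 5-FU was -0.31 ± 0.18 (SE), adjusted p 0.431 by limma.

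CCAT2 (ENSG00000280997, chr8:127400399-127402150), transcribed from an enhancer of MYC and known to raise MYC levels in colon cancer, lies within the listed span of PCAT1 and has 1 row. It was at 0.570, 0.919 and 0.507 FPKM in control, 0.349, 0.313 and 0.499 in 5-FU, and 0.578, 0.721 and 0.267 in H2O2. The 5-FU libraries were below control, the nearest pair being 0.499 and 0.507. The log2 difference was -0.38 ± 0.23 (SE) in 5-FU, adjusted p 0.469 by limma. It was -0.23 without control replicate 2 and -0.63 with a pseudocount of 0.1.

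Of the members that were not tested, CASC8, a lncRNA gene that overlaps the colorectal cancer risk region, was above 0 in 7 of 9 libraries but reached only 0.0245 FPKM. CASC11, the lncRNA gene next to MYC, was above 0 in 3 libraries and reached 0.0744. LINC02912, whose V29 name is TMEM75 and which lies inside PVT1, reached 0.199 FPKM and was above 0 in 7 libraries. ENSG00000253530, ENSG00000253573 and ENSG00000286010, without a symbol in the table, were above 0 in 3, 2 and 4 libraries.

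Summed over all 358 rows, the window stood at 43.6, 47.6 and 58.7 FPKM in control, 45.9, 49.4 and 50.1 in 5-FU, and 53.5, 50.1 and 48.1 in H2O2. This was 0.0772% to 0.102% of all listed FPKM. The log2 ratio of means was -0.04 in 5-FU and 0.02 in H2O2, each with an exact permutation p of 0.9. The sum was thus not distinguishable between groups, and control alone spanned the values of all treated libraries.

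The make-up of the window differed more than its sum. PVT1 was 73.5%, 65.6% and 69.1% of it in control, 77.2%, 77.4% and 74.5% in 5-FU, and 76.2%, 77.2% and 80.9% in H2O2. PCAT1 was 19.3%, 27.2% and 23.5% in control, 15.6%, 13.9% and 16.7% in 5-FU, and 17.6%, 14.7% and 12.4% in H2O2. For both shares, each treatment was separate from control, with an exact permutation p of 0.1, the smallest possible. The shares are parts of 1 whole and not independent, and both treatments were set against the same control libraries.

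For comparison, the 10 Mb on each side of the window held 455 rows of 150 genes, of which 47 were tested. NDRG1, a stress-responsive gene, carried 53.5% to 75.9% of their summed FPKM. That sum was higher in 5-FU than in control without overlap, with means of 391 and 335 FPKM (exact permutation p 0.1, the smallest possible). Between H2O2 and control it overlapped. Of the 47 tested neighbours 1 was called, in 5-FU against control, where 0.774% of all 9947 tested genes were called. This was LINC01151, at 0.394, 0.668 and 0.467 FPKM in control, 1.58, 1.57 and 1.56 in 5-FU, and 0.552, 0.782 and 0.747 in H2O2. Its log2 difference in 5-FU was 1.04 with an adjusted p of 0.0342 by limma. The region 1.5 Mb on each side of FGFR2 at 10q26, also known to be amplified in this line, had sums of 40.6 to 43.9 FPKM among control libraries, 37.1 to 44.2 among 5-FU libraries and 32.6 to 40.5 among H2O2 libraries. It was lower in H2O2 than in control without overlap (exact permutation p 0.1, the smallest possible), while the 8q24 window overlapped. The SD among control libraries was 1.65 FPKM for the FGFR2 region and 7.77 for the window.

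The wider MYC network was read from lists of genes. Values under protein-coding symbols are mostly those of retained-intron and other non-coding transcripts, not of the mRNA. Of 26 genes of the MYC and MAX network 17 were tested, and 0 were called by limma in any of the 3 comparisons. Over all tested genes 0.774% were called in 5-FU against control, 0% in H2O2 against control and 0.0704% in 5-FU against H2O2. With shares this low, 0 calls in a list of this size say little about its genes. The median log2 difference was 0.20 in 5-FU and 0.14 in H2O2 against control, beside 0.03 over all tested genes. The 2 most abundant were MYCBP2, at 12.8 to 18.1 FPKM, and HUWE1, a ubiquitin ligase that acts on MYC, at 10.98 to 16.0.

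MAX, the obligate partner of MYC in DNA binding, and MXD1, which competes with MYC for MAX, were picked out after their values were seen. MAX was at 1.07, 0.812 and 1.64 FPKM in control, 2.51, 2.28 and 3.37 in 5-FU, and 2.58, 1.48 and 2.20 in H2O2. MXD1 was at 1.54, 1.99 and 2.54 in control, 5.18, 3.12 and 5.90 in 5-FU, and 2.32, 2.18 and 6.29 in H2O2. Both were higher in 5-FU than in control without overlap, with log2 differences of 0.96 (adjusted p 0.116) and 1.03 (adjusted p 0.205) by limma.

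Of 32 genes known to be activated by MYC 24 were tested, and 0 were called in any comparison. The shares of all tested genes called were 0.774% in 5-FU against control, 0% in H2O2 against control and 0.0704% in 5-FU against H2O2. The median log2 difference of these MYC-activated genes was 0.18 in 5-FU and 0.04 in H2O2. The 2 most abundant, the glycolytic enzymes ENO1 and LDHA, differed in direction in 5-FU: ENO1 had a log2 difference of -0.36 (adjusted p 0.197) and LDHA of 0.29 (adjusted p 0.543). Of 8 lncRNA genes tied to MYC outside the window 5 were tested, and 0 were called, beside the same shares of all tested genes. EPIC1, a lncRNA that binds MYC, was at 16.4 to 22.8 FPKM and overlapped in all comparisons.

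GAS5, a lncRNA gene that hosts small nucleolar RNAs, separated all 3 groups. It was at 113, 119 and 127 FPKM in control, 102, 103 and 100.3 in 5-FU, and 144, 151 and 148 in H2O2. Its log2 difference of 5-FU against H2O2 was -0.54 ± 0.11 (SE), with an adjusted p of 0.113 by limma. Against control it was -0.23 in 5-FU (adjusted p 0.346) and 0.31 in H2O2 (adjusted p 0.483).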

How the data were processed

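The authors deposited FPKM per transcript, 1 column per library. HISAT2 2.0.5, StringTie, edgeR 3.22.5 and GRCh38 are named, without roles, per the submitters' processing notes, and a kit that keeps strand is named per the labels' protocols. The annotation release is not given there. The smallest value above 0 was 1e-06 FPKM, so whole reads could not be recovered.

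FPKM were summed per gene identifier. Genes and transcripts with at least 0.5 FPKM in 3 of 9 libraries entered limma 3.58.1 (trended eBayes, R 4.3.3, two-sided) as log2(FPKM + 0.5), in 1 fit of all libraries without a replicate term (6 residual degrees of freedom). Adjustment was Benjamini-Hochberg over all 9947 genes or 22618 transcripts. Fold changes of low genes are understated on this scale. Single values were compared by exact two-sided permutation tests. The procedure was tested on simulated data. GENCODE V29 and RefSeq (both GRCh38) gave classes, exons and names. No sequence is printed for this window. The labels give no batch.

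The members and lists were chosen with earlier results of these data known. Named were all tested member genes, set symbols of the locus with a row, the 8 most abundant PVT1 transcripts, the 2 most abundant of each other tested member gene, called transcripts and the 2 most abundant members of each list; transcripts matching a RefSeq gene were named too, other names added once values were known are marked as such, and PVT1 rows were likewise grouped by start and end with values known. The alternatives were other pseudocounts, filters, scaling, fits of the groups compared, a replicate block and leaving out libraries.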

Additional observations from a re-analysis of the deposited data

How the results depend on the processing

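No member gene was called under any of 17 alternatives in any comparison. The member transcripts called in H2O2 against control ranged from 0 to 1 when 1 library was left out, the 1 being PVT1-333 without control replicate 1, with a log2 difference of 2.39. The PVT1 difference ranged from 0.04 to 0.22 in 5-FU and from 0.13 to 0.31 in H2O2, the lower ends without control replicate 2 and the upper ends without control replicate 3. When 1 library was left out, CASC19 ranged from 0.43 to 0.83 in 5-FU and from 0.06 to 0.46 in H2O2, and CCAT2 from -0.48 to -0.23 in 5-FU. The log2 ratio of the window sum changed sign. In 5-FU it ranged from -0.13 to 0.0871 when 1 library was left out (0.0871 without control replicate 3), and in H2O2 from -0.0719 to 0.15; with median-of-ratios scaling it was -0.00812 in H2O2. The cause was not tested.

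The correlations of same-numbered libraries' deviations were -0.04 to 0.08 over 9 pairs, with 0 above 0.1. For differently numbered libraries they were -0.08 to 0.05. The highest, 0.08 and 0.06, were between 5-FU and H2O2 libraries numbered 1 and 3. Pairing by number was thus not evident, but such correlations cannot exclude a shared culture or day. With a replicate block, 0 member genes were called, the PVT1 difference was 0.10 in 5-FU and 0.20 in H2O2, and PCAT1 in 5-FU had an adjusted p of 0.298.

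Of 615 alternatives for single genes and transcripts, 589 kept direction and side of the threshold and 25 changed sign. When 1 library was left out, differences that changed sign ranged as follows. For 5-FU against H2O2, PCAT1 went from -0.15 to 0.16, PVT1-254 from -0.0591 to 0.25, PVT1-336 from -0.26 to 1.48, PVT1-237 from -0.32 to 0.00675, PVT1-361 from -0.12 to 0.83 and PVT1-212 from -0.0293 to 0.26. For 5-FU against control, PVT1-254 went from -0.27 to 0.0382, PVT1-336 from -0.37 to 0.53, PVT1-361 from -0.035 to 0.13 and PVT1-245 from -0.18 to 0.34. For H2O2 against control, PVT1-336 went from -1.34 to 0.40, PVT1-219 from -0.95 to 0.035, PVT1-361 from -0.76 to 0.18 and PVT1-245 from -0.44 to 0.0698. Without both treatment libraries numbered 3, PVT1-254 was at -0.12 and PVT1-212 at -0.0396 in 5-FU against H2O2, PVT1-336 at 0.40 in H2O2 and PVT1-245 at -0.0942 in 5-FU. CCAT2 gave no value under the filter at 1 FPKM.

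Depth is unknown, so no counting error can be given. With 3 libraries a group, the permutation test cannot go below 0.1.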
